A study of Mus musculus with 14 samples.

Results

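Gene expression was compared between mouse embryonic stem cells (mESC) and mouse embryonic fibroblasts (MEF), with 2 RNA-seq libraries of each. These are 4 of the 14 libraries of the series, and they were chosen by their labels, not by any measured value. The mESC libraries came from a line labelled "home made", of wild type genotype and untreated, whose cells had been kept on inactivated MEF feeders in serum-replacement medium with leukemia inhibitory factor (LIF), then passaged on gelatin before harvest. The MEF libraries came from primary fibroblasts, also wild type and untreated, grown in medium with fetal bovine serum. The groups therefore differ in culture medium and substrate as well as in cell type, and these cannot be told apart. The labels do not say whether the 2 libraries of a group are separate cultures. The p-values therefore cover the spread between these samples alone, and it may be technical. Of 24346 gene symbols in the deposited tables, 12876 had a mean of at least 1 FPKM (fragments scaled to transcript length and to library size) in either group and were tested.

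Embryonic stem cells are derived from the inner cell mass of the blastocyst. They grow as compact epithelial colonies, hold developmental genes under Polycomb repression, and self-renew under LIF through STAT3. Fibroblasts are mesenchymal cells that spread on a substrate, build actin stress fibres, and secrete and crosslink collagen. They carry a positional identity in their Hox genes and respond to TGF-beta, to tension and to inflammatory signals. The study set these cell types side by side to compare their splicing, and the files hold 1 value per gene, so levels and not splicing are described here.

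Levels are FPKM, which are per length, given for replicate 1 and then replicate 2. Differences are log2 fold changes of mESC minus MEF on the log2(FPKM + 1) scale, which understates the change of low genes, with the standard error (SE) and the Benjamini-Hochberg adjusted p of limma over all 12876 genes. Where a group is listed at 0 in both libraries, no fold change is given. A gene near 0 in 1 group could pass the level filter only through the other group, so its direction was set by the filter. Called means an adjusted p under 0.05, and "higher" and "lower" refer to mESC. Members named only because they make up a count of 5 or fewer were chosen after their values were seen.

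In limma 7306 genes were called, 56.7% of those tested, with 3944 higher (30.6%) and 3362 lower (26.1%); 8010 genes (62.2%) had an unadjusted p under 0.05. The groups did not overlap for 10271 genes (79.8%). The median log2 fold change over all tested genes was 0.15, over the higher ones 1.28 and over the lower ones -1.55. Changes of at least 16-fold were more often towards fibroblasts, with 277 genes lower and 132 higher. Among 32 gene lists holding 1037 genes, 972 were tested, 300 were higher and 387 lower, with a median of -0.23. The number called was 2836 when MEF replicate 1 was left out and 2996 when MEF replicate 2 was, because the spread is then taken from the mESC pair, which differed more from each other than the MEF pair did.

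The FPKM of a library summed to between 447684 and 558132, and its confidence bounds correspond to 18332625 to 25337449 effective fragments. As a check of the labels, 12 of 12 stem cell markers were higher and 12 of 12 fibroblast markers lower. The summed stem cell markers stood at 2421 and 3330 FPKM in mESC and at 23.4 and 17.7 in MEF, where 6 of 12, among them Pou5f1 and Sall4, were listed at 0. Summed fibroblast markers stood at 16.3 and 16.2 FPKM in mESC, with Col3a1, Lum and Fap at 0, and at 6131 and 5233 in MEF. Smooth muscle and pericyte markers summed to 366 and 359 FPKM in MEF, skeletal muscle markers to 44.3 and 34.5 and chondrocyte markers to 52.9 and 44.3, against at most 14.8 in any mESC library. In MEF these 3 sums were led by the actin Actg2 (mean 269), Des (mean 20.1) and Col2a1 (mean 34.1), in that order. Below 1 FPKM in MEF were 1 of 6 smooth muscle, 5 of 8 skeletal muscle and 2 of 6 chondrocyte markers. In mESC, primitive endoderm markers summed to 88.2 and 143 FPKM, led by Lama1. Neural markers summed to 171 and 159, led by Stmn2 (mean 91.0), and endothelial markers to 17.9 and 31.4, led by Pecam1 (mean 18.4). In mESC 4 of 8 neural and 5 of 8 endothelial markers were below 1 FPKM, against 0 of 8 for primitive endoderm. The part of such cells in the results was not tested. In bulk samples fewer cells of a type and less RNA per cell cannot be told apart. The Xist RNA of the inactive X chromosome stood at 1.27 and 0.849 FPKM in mESC and at 20.8 and 25.98 in MEF. The Y-linked Eif2s3y stood at 43.2 and 41.2 FPKM in mESC and at 7.30 and 8.76 in MEF. Both MEF libraries therefore held both RNAs. Eif2s3y was called higher (log2 fold change 2.26, SE 0.2). The Y-linked Ddx3y (0.50, SE 0.21, limma adjusted p = 0.096) and Kdm5d (0.27, SE 0.18, limma adjusted p = 0.25) were not called.

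**Figure D1:**
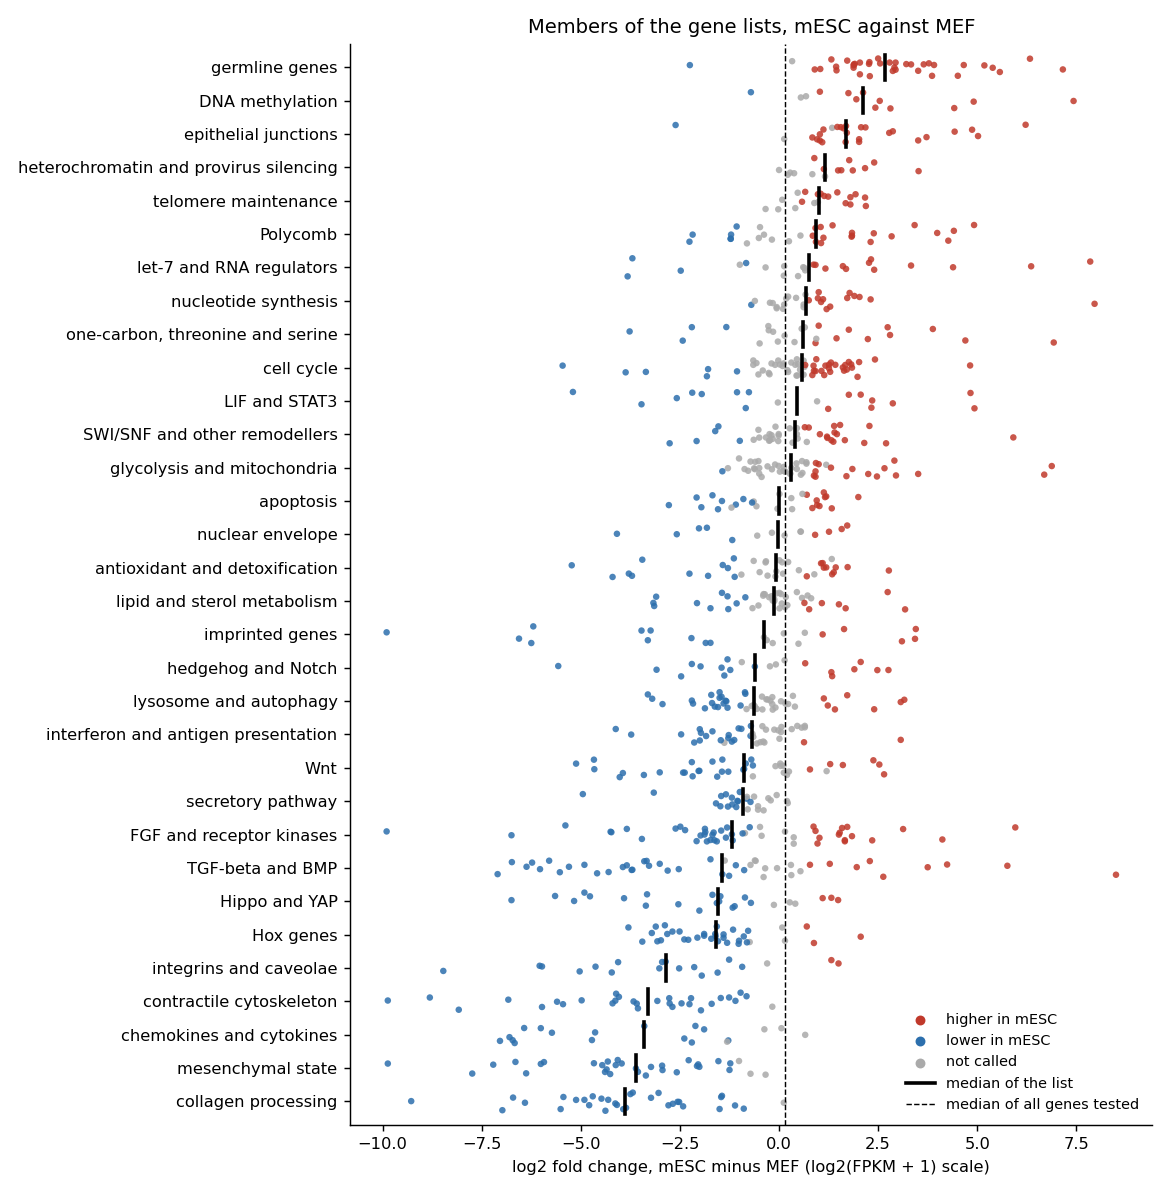
Each point is 1 tested member of 1 of the 32 gene lists, placed by its log2 fold change, mESC minus MEF, on the log2(FPKM + 1) scale, with vertical offsets for legibility only; a gene listed at 0 in 1 group is placed by its fitted value, which is no bound. Red points are called higher in mESC, blue points called lower, grey points not called; black bars are list medians, which run from -3.90 for collagen processing to 2.67 for germline genes, and the dashed line is the median of all tested genes, 0.15.

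Genes of cell-cell junctions separated the cell types towards mESC and genes of the mesenchymal state towards MEF. Of 27 tested epithelial junction genes (33 listed), 24 were higher and 1 was lower, with a median of 1.69. This was 9 higher without MEF replicate 1 and 10 without MEF replicate 2. With no filter 24 of the 33 were higher and 1 was lower, with a median of 1.56. Cdh1, which encodes E-cadherin, the adhesion receptor of epithelia, was at 61.9 and 92.7 FPKM in mESC and at 0.0138 and 0.0501 in MEF (log2 fold change 6.22, SE 0.26, limma adjusted p = 8e-05). The epithelial adhesion protein gene Epcam was at 33.4 and 44.9 FPKM in mESC and 0.242 and 0.201 in MEF (5.02, SE 0.22). Both genes were near 0 in both MEF libraries. Transmembrane inhibitors of epithelial serine proteases were high in mESC: Spint2 was at 82.1 and 115 FPKM against 2.04 and 2.71, and Spint1 at 16.02 and 29.1 against 0.101 and 0. The desmosomal cadherin Dsg2 was at 14.3 and 12.6 FPKM in mESC and 0.105 and 0.0921 in MEF, and the tight junction claudin Cldn4 at 8.70 and 16.4 against 0.188 and 0.0974. The simple epithelial keratins did not follow the junction genes evenly. Krt8 was at 4.89 and 24.2 FPKM in mESC and 2.04 and 1.76 in MEF (2.07, SE 0.66, limma adjusted p = 0.043), and its partner Krt18 was at 1.00 and 8.77 against 3.46 and 2.65, with the groups overlapping (0.13, SE 0.72, limma adjusted p = 0.89). Keratin copies are similar in sequence, so single values are uncertain. The exception to the direction was Cdh3, which encodes P-cadherin, at 1.09 and 2.81 FPKM in mESC and 16.9 and 15.7 in MEF (-2.61, SE 0.32). The epithelial splicing regulator Esrp2 was low throughout, at 1.07 and 2.74 against 0.347 and 0.372 FPKM, and Esrp1 stayed under the level filter. The calls of Krt8 and Esrp2 ended when either MEF library was left out, and that of Cdh3 without MEF replicate 1.

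Of 33 tested mesenchymal genes (35 listed), 30 were lower in mESC and 0 were higher, with a median of -3.61. With no filter 32 of the 35 were lower and 0 higher, with a median of -3.56. Cdh11, a cadherin of mesenchymal cells, was at 0 and 0.00647 FPKM in mESC and at 194 and 235 in MEF (-7.74, SE 0.21, limma adjusted p = 5.2e-05), and N-cadherin, Cdh2, at 0.694 and 0.665 against 28.1 and 28.4 (-4.12, SE 0.18). The calcium-binding protein gene S100a4, a common fibroblast label, was listed at 0 in both mESC libraries and stood at 1139 and 773 FPKM in MEF. Its relative S100a6 was at 5.75 and 42.3 FPKM in mESC and 1350 and 898 in MEF (-6.01, SE 0.86), a call that ended when either MEF library was left out. Vimentin, Vim, the mesenchymal intermediate filament protein, remained at 196 and 155 FPKM in mESC, against 2989 and 2878 in MEF (-4.07, SE 0.26). The hyaluronan receptor Cd44 was at 0.163 and 0.111 FPKM against 85.4 and 103, and the surface glycoprotein Thy1 at 1.05 and 3.75 against 330 and 295. Of 24 tested transcription factors of mesenchyme 21 were lower. Prrx1, a homeobox factor of limb mesenchyme, was listed at 0 in both mESC libraries and at 131 and 165 FPKM in MEF, and Twist1, a driver of mesenchymal fate, was at 0.980 and 2.01 against 63.4 and 44.1 (-4.46, SE 0.31). The other 3 did not pass. Zeb1, a repressor of Cdh1, was at 9.89 and 4.49 FPKM in mESC and 13.1 and 16.2 in MEF (-1.01, SE 0.37, limma adjusted p = 0.062), Tcf4 at 13.2 and 7.25 against 15.5 and 18.3 (limma adjusted p = 0.1), and Meox1 at 0.614 and 0.808 against 1.18 and 1.14 (limma adjusted p = 0.12).

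Adhesion to the matrix and the coat proteins of caveolae, the small pits of the plasma membrane, leaned to fibroblasts. Of 19 tested genes (22 listed), 16 were lower and 2 higher, with a median of -2.86. With no filter 18 of the 22 were lower and 1 higher, with a median of -2.33. Itgb1, the shared beta chain of most matrix-binding integrins, was at 86.8 and 80.8 FPKM in mESC and 446 and 525 in MEF (-2.52, SE 0.23, limma adjusted p = 0.00064). The alpha chain of the fibronectin receptor, Itga5, was at 29.5 and 38.3 FPKM against 143 and 123 (-1.95, SE 0.24), and its call ended without MEF replicate 1. The 2 subunits higher in mESC were both alpha chains of laminin receptors: Itga6 at 47.1 and 36.7 FPKM against 12.6 and 15.7 (1.5, SE 0.24), and Itga3 at 10.18 and 24.4 against 6.43 and 5.17 (1.32, SE 0.41, limma adjusted p = 0.041). Without MEF replicate 1 or MEF replicate 2 neither was called, and without mESC replicate 2 only 1 was. All 6 caveolar genes were tested and lower. Cav1, the main caveolin, was at 0 and 0.0341 FPKM in mESC and 324 and 400 in MEF (-8.47, SE 0.21), and Cav2 at 0.0547 and 0.0103 against 20.7 and 29.1. The caveolar coat genes Ptrf, at 10.4 and 17.8 FPKM in mESC against 310 and 240 in MEF, and Ehd2, at 0.790 and 0.688 against 112 and 107, were lower by 4.22 and 5.98 on the log2 scale. Sdpr and Prkcdbp, which encode the other coat proteins, were under 1.5 FPKM in each mESC library and between 29.9 and 131 in MEF.

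Collagen must be hydroxylated, chaperoned, trimmed and crosslinked, and the genes for each step were lower in mESC. Of 32 genes, all tested, 31 were lower and 0 higher, with a median of -3.90, the lowest of the 32 lists. Lox, which crosslinks collagen and elastin, was at 0 and 0.0121 FPKM in mESC and at 562 and 690 in MEF (-9.28, SE 0.21, limma adjusted p = 5.2e-05), and its relative Loxl1 at 0.552 and 1.45 against 196 and 139 (-6.41, SE 0.31). Both were absent or nearly so from both mESC libraries. The collagen chaperone Serpinh1 was not: it stood at 34.1 and 87.8 FPKM in mESC and 978 and 738 in MEF (-3.93, SE 0.48). The prolyl hydroxylase subunit P4ha1 was at 5.98 and 19.6 FPKM in mESC and 62.0 and 64.2 in MEF (-2.42, SE 0.51, limma adjusted p = 0.011). Among matrix proteases and their inhibitors, Mmp2, which degrades basement membrane collagen, was at 3.01 and 2.70 FPKM against 90.5 and 79.2. Timp2 was at 0.868 and 1.85 against 298 and 284, and Timp3 at 0.620 and 1.46 against 190 and 228. Ctsk, a collagen-degrading cathepsin, was at 0.0521 and 0 FPKM in mESC and 46.2 and 45.5 in MEF. The single member that did not pass was Plod2, a lysyl hydroxylase, at 32.0 and 39.3 FPKM in mESC and 28.9 and 36.8 in MEF, where the groups overlapped (0.12, SE 0.24, limma adjusted p = 0.7). The call of P4ha1 ended when either MEF library was left out and that of Serpinh1 without MEF replicate 1.

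The contractile cytoskeleton followed the matrix genes. All 30 listed genes were tested, and 29 were lower, with a median of -3.32; without MEF replicate 1 it was 19. Many of them are targets of serum response factor (SRF) and its actin-sensing cofactors. Smooth muscle actin, Acta2, was at 0.575 and 0.813 FPKM in mESC and 1556 and 1609 in MEF (-9.87, SE 0.21, limma adjusted p = 5.2e-05), and the actin-binding protein gene Tagln was at 0.909 and 3.20 against 1345 and 1194 (-8.81, SE 0.40). The myosin light chain gene Myl9 was at 2.04 and 5.39 FPKM in mESC and 568 and 440 in MEF (-6.83, SE 0.40), and the calponin Cnn1 at 0.159 and 0.943 against 78.5 and 65.8. Tropomyosin Tpm2 stood at 1.24 and 3.19 FPKM in mESC against 212 and 173, and the SRF coactivator Tgfb1i1 at 0.221 and 0.277 against 56.6 and 50.4. These muscle-type genes were lower by far more than the cytoplasmic actins, which every cell uses. Actb was at 751 and 1233 FPKM in mESC and 2687 and 2651 in MEF (-1.47, SE 0.33, limma adjusted p = 0.014), and Actg1 at 1179 and 931 against 3321 and 3499 (-1.70, SE 0.27). Actin genes are near-identical in sequence, so their single values are uncertain. Srf itself was at 11.8 and 21.3 FPKM in mESC and 34.6 and 29.6 in MEF, a small difference (-0.97, SE 0.32, limma adjusted p = 0.046). Of its cofactors, Mkl1 was lower and Mkl2 was not called. Mkl2 was at 6.12 and 4.14 FPKM against 5.93 and 5.71, and the groups overlapped (-0.17, SE 0.23, limma adjusted p = 0.55). The calls of Actb, Actg1 and Srf ended when either MEF library was left out, and that of Srf also without mESC replicate 1.

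SRF binds the CArG box, a run of A and T bases between CC and GG. Promoter windows of 250 bases before to 50 after the gene start were taken from RefSeq (GRCm38.p6, the assembly behind mm10), and both strands were searched for the CArG box, for the E-box CACGTG and for the TEAD motif GGAATG. A gene was counted if any of its windows held a match. Of 24 contractile genes with a window, 6 (25%) held a CArG box: Srf, Actg1, Myl9, Cnn2, Vcl and Lima1. The share was 1.64% of the 10300 tested genes with a window and 1.81% of all 27025 genes in the table. It was 2.25% among genes lower in mESC and 1.11% among those higher. A match is a description and not a shown binding site. The windows of Acta2 and Cnn1 held no match to this pattern, which says only that these letters are not in these windows. The 250 bases upstream of Srf, which held a pair of CArG boxes, and of Myl9, the most changed gene with a match, are shown with the CArG boxes in capitals, 5′ to 3′ on the gene's strand. Srf lies on the minus strand at chr17:46556163-46556412 and Myl9 on the plus strand at chr2:156775214-156775463.
Srf: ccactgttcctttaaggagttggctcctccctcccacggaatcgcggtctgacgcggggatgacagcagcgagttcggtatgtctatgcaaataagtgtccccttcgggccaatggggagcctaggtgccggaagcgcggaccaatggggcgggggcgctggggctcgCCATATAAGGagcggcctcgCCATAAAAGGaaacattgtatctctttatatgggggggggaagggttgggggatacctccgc
Myl9: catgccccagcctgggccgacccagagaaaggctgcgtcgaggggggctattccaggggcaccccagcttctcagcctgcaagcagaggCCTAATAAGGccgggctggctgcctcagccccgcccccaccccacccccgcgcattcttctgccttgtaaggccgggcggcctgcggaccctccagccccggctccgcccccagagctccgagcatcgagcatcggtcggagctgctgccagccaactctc

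TGF-beta and BMP signals act through paired surface receptors and SMAD proteins, and here the ligand genes split between the cell types. Of 45 tested genes (46 listed), 26 were lower and 9 higher, with a median of -1.43. Ligands divided 5 higher and 6 lower of 13. Nodal, the ligand that patterns the early embryo, was at 12.3 and 26.01 FPKM in mESC, whereas both MEF libraries had it at 0. Its coreceptor Tdgf1 was at 312 and 418 FPKM in mESC and likewise listed at 0 in both MEF libraries. The reverse held for Tgfb3, at 0.0217 and 0.0164 FPKM in mESC and 88.0 and 79.3 in MEF (-6.37, SE 0.19, limma adjusted p = 5.7e-05), and for Tgfb1, at 1.47 and 4.39 against 42.3 and 30.4 (-3.34, SE 0.42). Bmp4 was present in both, at 25.7 and 42.8 FPKM in mESC and 24.9 and 20.4 in MEF (0.54, SE 0.30, limma adjusted p = 0.18). Of 11 receptors and coreceptors, 6 were lower and 3 higher. The TGF-beta receptor Tgfbr2 was at 1.89 and 1.79 FPKM in mESC against 39.5 and 39.8 in MEF (-3.84, SE 0.19), and the 3 higher ones were Tdgf1 and the activin and Nodal receptors Acvr1b (1.28, SE 0.24) and Acvr2b (2.29, SE 0.25). Inhibitors and targets were mostly lower, 14 of 21 against 1 higher, the latent TGF-beta binding protein gene Ltbp4 (1.96, SE 0.24). The BMP antagonist Grem1 was at 0 and 0.0188 FPKM in mESC and 108 and 107 in MEF (-6.74, SE 0.19). The shared transducer Smad4 did not separate the groups, at 43.4 and 29.4 FPKM against 35.7 and 38.3 (-0.05, SE 0.26, limma adjusted p = 0.88). The BMP target Id1 was at 24.3 and 75.7 FPKM in mESC and 140 and 90.3 in MEF (-1.37, SE 0.56, limma adjusted p = 0.088). The call of Tgfb1 ended without MEF replicate 1.

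In the Wnt pathway the secreted and surface components leaned to fibroblasts while the transducers went both ways. Of 38 tested genes (43 listed), 23 were lower and 6 higher, with a median of -0.89; the 6 became 3 without MEF replicate 1. The noncanonical ligand Wnt5a was at 0.108 and 0.103 FPKM in mESC and 26.6 and 27.2 in MEF (-4.66, SE 0.18, limma adjusted p = 7.5e-05), and Wnt4 at 0.0285 and 0.180 against 12.5 and 9.08. Receptors Fzd1, at 0.263 and 0.261 FPKM against 47.9 and 38.5, and Fzd2, at 1.82 and 2.28 against 57.8 and 40.7, were lower too. So were the secreted inhibitors Dkk3, at 0.0548 and 0.513 against 32.9 and 29.4, Sfrp2, at 5.41 and 4.68 against 95.1 and 88.0, and Sfrp1, at 9.62 and 8.10 against 41.9 and 36.7. In each of these genes every mESC library was below every MEF library, where the groups did not overlap for 79.8% of all tested genes. The 12 tested transducers and targets had 2 higher, 4 lower and a median of 0.04. Beta-catenin, Ctnnb1, was at 328 and 271 FPKM in mESC and 244 and 275 in MEF (0.20, SE 0.24, limma adjusted p = 0.5), and the feedback target Axin2 at 2.25 and 2.71 against 2.48 and 2.31 (0.03, SE 0.18, limma adjusted p = 0.89). For both, the groups overlapped. The nuclear partners of beta-catenin were used unequally. Tcf7l1, the repressing TCF of stem cells, was at 30.3 and 46.3 FPKM in mESC and 15.6 and 13.9 in MEF (1.29, SE 0.27), and Tcf7 at 8.96 and 13.2 against 1.47 and 1.11 (2.38, SE 0.25). Tcf7l2 went the other way, at 1.81 and 2.14 against 5.998 and 6.40 (-1.28, SE 0.18), and Lef1 did not pass, at 1.84 and 6.74 against 0.905 and 1.20 (limma adjusted p = 0.08). The calls of Tcf7l1 and Tcf7l2 ended when either MEF library was left out.

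Growth factors, receptor tyrosine kinases and their feedback genes formed the next group, with 28 lower and 15 higher of 49 tested (53 listed) and a median of -1.19. The 15 became 3 without either MEF replicate 1 or MEF replicate 2. Fgf4, the autocrine FGF of the early epiblast, was at 60.3 and 62.1 FPKM in mESC, whereas both MEF libraries had it at 0. The platelet-derived growth factor Pdgfc was at 0.939 and 0.591 FPKM against 30.6 and 34.6, while Pdgfa was at 20.4 and 33.4 against 20.1 and 20.0 and did not pass (0.37, SE 0.28, limma adjusted p = 0.31). Of 21 receptors, 15 were lower and 5 higher. The receptor kinase Axl was at 0.171 and 0.346 FPKM in mESC and 144 and 125 in MEF (-6.75, SE 0.21), and the PDGF receptors Pdgfrb at 0.636 and 1.09 against 82.7 and 71.1 (-5.39, SE 0.23) and Pdgfra at 9.50 and 6.47 against 46.4 and 51.5 (-2.49, SE 0.25). The 5 higher receptors were Kit (4.12, SE 0.18), Fgfr4, Erbb3 (1.53, SE 0.49), Epha2 (1.72, SE 0.30) and Epha4 (1.51, SE 0.26). Genes induced by ERK signalling as feedback ran against the rest of the list, with 6 higher and 2 lower of 10 and a median of 0.92. Spry4, a Sprouty inhibitor of ERK signalling, was at 23.3 and 48.8 FPKM in mESC and 5.79 and 5.82 in MEF (2.35, SE 0.37, limma adjusted p = 0.0039), a call that ended, like that of Fgfr4, when either MEF library was left out. Spred1 did not pass, at 27.2 and 17.5 against 19.3 and 19.9 (limma adjusted p = 0.65).

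The LIF and STAT3 list, 18 genes and all tested, divided evenly, with 8 higher and 8 lower, and 5 of each without either MEF replicate 1 or MEF replicate 2. The median of 0.46 was 0.78 without mESC replicate 1, 0.08 without mESC replicate 2 and 0.30 without MEF replicate 2. Lifr, the receptor chain specific to LIF, was at 20.7 and 12.95 FPKM in mESC and 4.11 and 4.18 in MEF (1.76, SE 0.27, limma adjusted p = 0.0037). The shared signalling chain Il6st was lower in mESC, at 17.5 and 14.3 FPKM against 66.5 and 61.5 (-1.95, SE 0.21), as was Stat3 itself, at 29.8 and 29.0 against 55.6 and 51.1 (-0.84, SE 0.20). The alternative partner chains were lower in mESC: Osmr at 0.104 and 0.0671 FPKM against 34.3 and 44.1, and Il11ra1 at 2.187 and 1.43 against 32.5 and 27.6. These targets of the pathway in stem cells were higher. Tfcp2l1 was at 35.4 and 24.4 FPKM in mESC and 0.0727 and 0.0689 in MEF (4.83, SE 0.24), Gbx2 at 31.6 and 35.3 against 0.218 and 0.0483 (4.93, SE 0.20), and the feedback inhibitor Socs3 at 55.5 and 87.9 against 19.2 and 13.2 (2.06, SE 0.32). The ligand gene Lif was low and overlapping, at 1.16 and 1.65 FPKM against 1.63 and 1.27 (-0.03, SE 0.19, limma adjusted p = 0.9). The calls of Lifr, Stat3 and Socs3 ended when either MEF library was left out.

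The Hippo pathway restrains YAP and TAZ, which bind TEAD factors and turn on genes of spreading and tension. Of 24 genes, all tested, 18 were lower and 3 higher, with a median of -1.54. The 18 became 11 without MEF replicate 1 and 10 without MEF replicate 2, and the 3, which were Stk4 (1.10, SE 0.20), Tead4 and Ajuba (1.32, SE 0.24), were then not called. Well-known YAP targets were lower by wide margins. Ctgf was at 11.4 and 9.86 FPKM in mESC and 595 and 569 in MEF (-5.65, SE 0.21, limma adjusted p = 7.1e-05), Cyr61 at 9.001 and 12.8 against 445 and 403 (-5.17, SE 0.25) and Ankrd1 at 0.0913 and 0.620 against 37.6 and 40.4 (-4.91, SE 0.25). For all 3 targets the 2 MEF libraries lay close together and far above both mESC libraries. The groups did not overlap for 79.8% of all tested genes. The coactivators themselves differed less. Yap1 was at 38.6 and 43.5 FPKM in mESC and 64.6 and 70.9 in MEF (-0.71, SE 0.21, limma adjusted p = 0.033), and Wwtr1, which encodes TAZ, at 10.6 and 10.7 against 34.9 and 37.95 (-1.68, SE 0.19). The TEAD cofactor Vgll3 was at 0.365 and 0.0752 FPKM against 31.6 and 32.6. The kinase adaptor Mob1a and the upstream activator Nf2 did not pass, with limma adjusted p values of 0.75 and 0.26. The calls of Yap1 and Tead4 ended when either MEF library was left out, that of Yap1 also without mESC replicate 1, and that of Wwtr1 without MEF replicate 2.

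The TEAD motif GGAATG, or CATTCC on the other strand, was found in the windows of 14 of 20 Hippo genes with a window (70%). The share was 14.4% of the tested genes and 16.6% of all genes in the table. Yap1, Wwtr1, Vgll3, Cyr61, Ankrd1 and Axl were among the 14, and Ctgf had no entry. The upstream 250 bases of Cyr61 and Ankrd1 are shown because both are YAP targets with large differences, with the motif in capitals. Cyr61 lies on the minus strand at chr3:145649986-145650235 and Ankrd1 on the minus strand at chr19:36119845-36120094.
Cyr61: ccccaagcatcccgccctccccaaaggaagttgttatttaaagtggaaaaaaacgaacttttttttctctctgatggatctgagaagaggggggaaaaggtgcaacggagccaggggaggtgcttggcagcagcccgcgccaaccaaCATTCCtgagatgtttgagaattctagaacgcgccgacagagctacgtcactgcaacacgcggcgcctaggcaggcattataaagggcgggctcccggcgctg
Ankrd1: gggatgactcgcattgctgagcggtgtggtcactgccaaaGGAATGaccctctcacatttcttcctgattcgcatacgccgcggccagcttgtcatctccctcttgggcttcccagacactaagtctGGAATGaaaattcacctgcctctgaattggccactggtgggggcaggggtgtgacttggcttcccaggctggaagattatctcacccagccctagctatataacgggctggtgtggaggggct

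Hedgehog and Notch genes went both ways, as did all tested genes (30.6% higher and 26.1% lower). Of 21 tested (25 listed), 10 were lower and 7 higher, with a median of -0.61. Without MEF replicate 1 this was 6 lower and 2 higher, and without MEF replicate 2 it was 7 and 3; the median was -0.40 without mESC replicate 1. The hedgehog targets Gli1, at 2.42 and 3.77 FPKM in mESC and 0.0338 and 0.131 in MEF (1.90, SE 0.21, limma adjusted p = 0.0013), and Ptch1, at 7.19 and 7.34 against 2.48 and 2.17 (1.32, SE 0.18), were higher. The hedgehog coreceptors Gas1, at 0.533 and 1.06 FPKM against 109 and 63.4 (-5.57, SE 0.33), and Boc, at 0.772 and 1.02 against 15.8 and 14.6 (-3.09, SE 0.19), were lower. In the Notch pathway Rbpj, the DNA-binding partner of the cleaved receptor, was at 140 and 107 FPKM in mESC and 26.2 and 31.2 in MEF (2.06, SE 0.24). Receptor use differed: Notch4, at 3.22 and 11.4 FPKM against 0.104 and 0.0373, and Notch3, at 7.83 and 8.80 against 3.22 and 2.20, were higher. Notch2, at 3.74 and 3.27 against 10.6 and 9.53, and the ligand Jag1, at 1.47 and 1.62 against 13.03 and 13.1, were lower. Notch1 overlapped, at 6.28 and 7.73 FPKM against 6.91 and 5.60 (limma adjusted p = 0.6), and the target Hes1 did not pass, at 18.2 and 33.5 against 52.9 and 44.0 (limma adjusted p = 0.059). The calls of Ptch1, Notch2, Notch3 and Notch4 ended when either MEF library was left out, and that of Rbpj without MEF replicate 1.

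Hox genes, which lie in 4 clusters and record position along the body axis, were low in mESC and moderate in MEF. Of 35 tested (39 listed), 29 were lower and 3 higher, with a median of -1.60. With no filter 28 of the 39 were lower and 2 higher, with a median of -1.54. Levels in MEF were highest at Hoxb9, with 13.49 and 15.4 FPKM against 1.28 and 1.08 in mESC (-2.82, SE 0.19, limma adjusted p = 0.00026), and at Hoxc6, with 13.7 and 12.6 against 0 and 0.0195 (-3.80, SE 0.17). Hoxd8 was at 10.5 and 11.3 FPKM in MEF and 0.345 and 0.231 in mESC, and Hoxc8 at 9.40 and 10.9 against 0 and 0.0367. Hoxb6 was at 7.78 and 7.66 FPKM in MEF and 0.228 and 0 in mESC, and Hoxa9 at 3.31 and 2.95 against 0.0365 and 0.200. In these 6 genes both MEF libraries were above both mESC libraries, where the groups did not overlap for 79.8% of all tested genes. The Hoxa cluster was the least separated, with 7 lower of 10 tested and a median of -0.85, against -2.29 for Hoxb, -2.51 for Hoxc and -1.31 for Hoxd. Among the 3 genes higher in mESC, Hoxc13 was at 2.34 and 3.40 FPKM in mESC and 1.05 and 1.10 in MEF (0.88, SE 0.20), and Hoxb13 at 0.691 and 1.47 against 0.196 and 0.320 (0.70, SE 0.22). Without MEF replicate 1 none of the 3 was called, and without MEF replicate 2 only 1 was. Hoxa5 did not pass, at 5.79 and 2.85 FPKM in mESC and 8.35 and 6.81 in MEF (limma adjusted p = 0.099), and Hoxa4 and Hoxc12 overlapped. Neighbouring Hox genes have transcripts that overlap, and strand was not stated, so neighbours cannot be fully told apart.

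**Figure D2:**
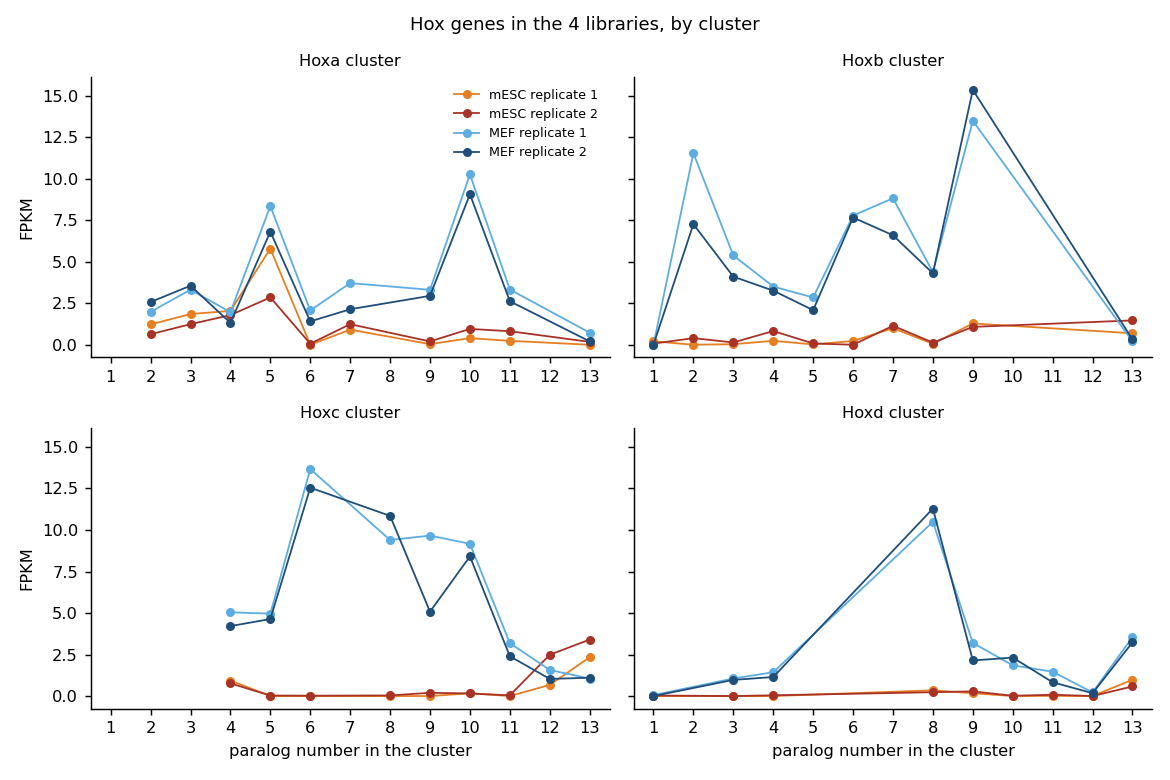
FPKM of Hox genes in the 4 libraries, with the paralog number along the x axis and 1 panel for each cluster; lines join the genes of 1 library. Both MEF libraries rise over the middle of the Hoxb, Hoxc and Hoxd clusters, up to 15.4 FPKM at Hoxb9, while both mESC libraries stay lower there, at 1.28 and 1.08 FPKM for Hoxb9.

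Imprinted genes, which are expressed from 1 parental allele, did not share a direction: 10 were lower and 5 higher of 21 tested (27 listed), with a median of -0.38. The 5 became 3 when either MEF replicate 1 or MEF replicate 2 was left out, and the median was -0.73 without mESC replicate 2. H19, the noncoding neighbour of Igf2, was at 13.3 and 23.8 FPKM in mESC and 1915 and 1644 in MEF (-6.56, SE 0.33, limma adjusted p = 0.00013). Several growth regulators were lower with it. Dlk1 was at 0.863 and 0.715 FPKM against 150 and 122 (-6.25, SE 0.21), the adaptor Grb10 at 2.11 and 2.13 against 222 and 237 (-6.20, SE 0.19), and the cell cycle inhibitor Cdkn1c at 4.30 and 1.44 against 45.3 and 33.4 (-3.47, SE 0.41). The zinc finger gene Peg3 was at 4.89 and 3.81 FPKM against 25.0 and 22.1. In the other direction, the retrotransposon-derived Peg10 was at 152 and 115 FPKM in mESC and 10.19 and 12.3 in MEF (3.45, SE 0.24), and Phlda2, a growth restraint of placenta, at 8.24 and 13.96 against 0.195 and 0 (3.43, SE 0.28). Mest (1.64, SE 0.31), Snrpn (3.10, SE 0.22) and Zrsr1 (1.10, SE 0.17) were the other 3 higher. The maternally expressed noncoding RNAs of the Dlk1 locus were not called, unlike Dlk1 itself: Meg3 was at 38.7 and 63.5 FPKM in mESC and 71.9 and 58.5 in MEF (-0.38, SE 0.31, limma adjusted p = 0.33), and Rian at 109 and 73.7 against 97.3 and 128 (-0.31, SE 0.29, limma adjusted p = 0.39). Both overlapped between the groups. Allelic expression was not measured. The call of Cdkn1c ended without MEF replicate 1.

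DNA methylation is written by DNMT enzymes and removed through oxidation by TET enzymes, and both sides were higher in mESC. Of 13 genes, all tested, 10 were higher and 1 lower, with a median of 2.12. Dnmt3l, the cofactor without catalytic activity, was at 145.3 and 338 FPKM in mESC and 0.139 and 0.467 in MEF (7.43, SE 0.43, limma adjusted p = 0.00017). The de novo enzyme Dnmt3b was at 32.2 and 49.8 FPKM against 0.818 and 1.02 (4.42, SE 0.27) and Dnmt3a at 26.97 and 24.9 against 6.52 and 5.43 (1.95, SE 0.20). The maintenance enzyme Dnmt1, needed by all dividing cells, did not reach the threshold, at 54.8 and 69.1 FPKM against 40.6 and 35.9 (0.68, SE 0.23, limma adjusted p = 0.05). Its recruiting partner Uhrf1 was at 87.9 and 138 FPKM against 33.9 and 30.4 (1.75, SE 0.28), and the helicase Hells at 139 and 101 against 17.3 and 22.2 (2.54, SE 0.26). Tet1 was at 64.8 and 34.1 FPKM in mESC and 0.490 and 0.715 in MEF (4.91, SE 0.34), and Tet2 at 18.8 and 12.9 against 1.91 and 2.25 (2.43, SE 0.25). The 1 lower gene was Tet3, at 2.69 and 2.32 FPKM against 4.98 and 4.47 (-0.71, SE 0.18, limma adjusted p = 0.022). The call of Uhrf1 ended when either MEF library was left out, and that of Tet3 also without mESC replicate 2.

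Polycomb complexes silence developmental genes by marking histones, and 18 of 31 genes, all tested, were higher against 6 lower, with a median of 0.93. Without either MEF replicate 1 or MEF replicate 2 this was 9 higher and 1 lower. In PRC2, which methylates histone H3, 9 of 12 were higher and 0 lower. Its catalytic subunit Ezh2 was at 94.2 and 86.5 FPKM in mESC and 22.5 and 26.7 in MEF (1.84, SE 0.21, limma adjusted p = 0.0015). The accessory subunits of stem cells stood further apart: Jarid2 at 90.1 and 80.6 FPKM against 2.97 and 3.16 (4.41, SE 0.20), Mtf2 at 113 and 68.7 against 6.17 and 8.63 (3.42, SE 0.32), and E130012A19Rik, also known as Epop, at 79.5 and 227 against 4.33 and 2.75 (4.92, SE 0.52). The histone chaperone subunit Rbbp7, shared with other complexes, did not pass, at 132 and 121 FPKM against 135 and 151 (limma adjusted p = 0.52). PRC1, which ubiquitinates histone H2A, was split, with 9 of its 19 genes higher and 6 lower. The chromobox gene Cbx7 was at 21.2 and 29.6 FPKM in mESC and 0.306 and 0.397 in MEF (4.27, SE 0.23), and Phc1 at 164 and 111 against 7.83 and 7.27 (3.99, SE 0.26). Cbx6 was lower, at 7.90 and 12.6 FPKM against 27.8 and 21.4 (-1.21, SE 0.29), as was Cbx8, at 0.244 and 1.31 against 4.05 and 2.07 (-1.22, SE 0.38). Bmi1 overlapped, at 16.8 and 6.58 FPKM against 12.8 and 18.7 (limma adjusted p = 0.37). The calls of Ezh1, Cbx2, Cbx6 and Cbx8 ended when either MEF library was left out, and those of Cbx6 and Cbx8 also without mESC replicate 1.

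Nucleosome remodellers leaned to mESC by less, with 16 higher and 5 lower of 40 tested (41 listed) and a median of 0.40; without MEF replicate 1 this was 3 and 1, and without MEF replicate 2 it was 4 and 2. Among 24 tested ATPases and subunits 8 were higher and 4 lower, with a median of -0.01. Over all tested genes 30.6% were higher and 26.1% lower, so nothing particular to these complexes is read from that count. Subunits of SWI/SNF went both ways, while the main ATPase was not called. Smarca4, which encodes that ATPase, BRG1, was at 32.9 and 42.2 FPKM in mESC and 41.4 and 34.2 in MEF (-0.02, SE 0.24, limma adjusted p = 0.96). Its alternative Smarca2, which encodes BRM, was at 0.316 and 0.792 FPKM against 8.39 and 10.6 (-2.76, SE 0.24). The scaffold Smarcc1 was at 72.4 and 58.8 FPKM in mESC and 26.2 and 29.2 in MEF (1.21, SE 0.22), and its relative Smarcc2 at 6.15 and 6.96 against 23.3 and 20.9 (-1.61, SE 0.20). In the same way Smarcd1 was higher, at 47.9 and 64.0 FPKM against 11.5 and 9.78 (2.28, SE 0.24), and Smarcd3 lower, at 1.95 and 3.05 against 14.7 and 12.5 (-2.08, SE 0.24). Among silencers of heterochromatin and proviruses 9 of 15 were higher and 0 lower, with a median of 1.16; without MEF replicate 1 and MEF replicate 2 it was 3 and 2 higher. Trim28, the corepressor of zinc finger proteins, was at 769 and 682 FPKM in mESC and 146 and 128 in MEF (2.40, SE 0.23). Zfp57, which protects imprints, was at 175 and 148 FPKM against 12.5 and 13.8 (3.52, SE 0.21), and Zfp809, which silences retroviruses, at 43.6 and 17.4 against 5.57 and 5.16 (2.17, SE 0.43). The H3K9 methyltransferase Setdb1 was at 26.8 and 29.6 FPKM against 12.4 and 12.2 (1.13, SE 0.20), while Ehmt2 overlapped, at 29.1 and 56.5 against 45.9 and 36.0 (limma adjusted p = 1). The calls of Smarcc1, Smarcc2, Setdb1 and Zfp809 ended when either MEF library was left out, and that of Smarcd3 without MEF replicate 1.

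The nuclear envelope had A-type and B-type lamins in opposite directions, with 4 higher and 5 lower of 14 tested (15 listed) and a median of -0.02, which was 0.05 without MEF replicate 1, -0.10 without MEF replicate 2 and -0.16 without mESC replicate 2. Lmna, whose A-type lamins stiffen the nucleus, was at 16.9 and 32.5 FPKM in mESC and 523 and 331 in MEF (-4.09, SE 0.40, limma adjusted p = 0.00081). The B-type lamin Lmnb1 was at 124 and 191 FPKM in mESC and 56.0 and 46.3 in MEF (1.58, SE 0.29), Lmnb2 at 26.8 and 41.8 against 15.7 and 11.5 (1.26, SE 0.30), and the lamin B receptor Lbr at 102 and 72.2 against 24.0 and 26.95 (1.72, SE 0.25). Sun1 (0.91, SE 0.21) was the other gene higher. The linker protein gene Sun2 was at 6.35 and 7.74 FPKM against 30.7 and 24.2 (-1.82, SE 0.23), and Lemd2 was at 8.87 and 12.2 against 32.5 and 18.9 (-1.18, SE 0.32). The other genes lower were Lmna, Syne1 (-2.02, SE 0.17) and Syne3 (-2.58, SE 0.20). Emd, Tmpo and Banf1 did not pass, with limma adjusted p values from 0.13 to 0.25. The calls of Lmnb1, Lmnb2, Lbr and Lemd2 ended when either MEF library was left out, those of Lmnb2 and Lemd2 also without mESC replicate 2, that of Lemd2 also without mESC replicate 1, and that of Sun2 without MEF replicate 1. With either MEF library left out none of the 4 higher genes was called, and without MEF replicate 1 the 5 became 3.

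Germline genes, silent in most somatic cells, were the list with the highest median. Of 38 tested (45 listed), 36 were higher and 1 lower, with a median of 2.67. A gene near 0 in MEF could pass the level filter only through mESC, so the direction of such genes was set by the filter. With no filter 41 of the 45 were higher and 1 lower, with a median of 2.28. Rpl10l, the autosomal copy of a ribosomal protein gene used in meiosis, was at 128 and 158 FPKM in mESC, and no MEF library had a value above 0. It shares sequence with its parent gene, and the testis tubulin Tuba3a, at 69.6 and 94.8 FPKM against 0.0470 and 0, with other tubulins, so both values are uncertain. The germ cell RNA-binding protein gene Dazl was at 47.4 and 25.99 FPKM in mESC, the genome guardian Tex19.1 at 43.8 and 49.7, and the meiosis inducer Stra8 at 50.3 and 33.2, and all 3 were listed at 0 in both MEF libraries. Mael, a piRNA pathway gene, was at 5.82 and 7.53 FPKM against 0.0228 and 0 (2.91, SE 0.19, limma adjusted p = 0.00023). The meiotic chromosome axis genes Sycp3, at 22.1 and 10.5 FPKM against 0.104 and 0.143 (3.86, SE 0.35), and Hormad1, at 30.8 and 15.3 against 0 in both, were chosen after their values were seen, for their promoters. The 1 lower gene was Tdrd7, at 0.469 and 0.619 FPKM against 6.34 and 6.28 (-2.25, SE 0.17), and the germ cell specifier Prdm1 did not pass, at 2.36 and 1.72 against 1.30 and 1.51 (limma adjusted p = 0.18).

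The palindromic E-box CACGTG, to which MAX and MGA, of a complex that silences germline genes, bind, was found in the windows of 15 of 38 germline genes with a window (39.5%). The share was 12% of the tested genes and 8.09% of all genes in the table, 12.4% of the higher and 10.4% of the lower genes. Dazl, Stra8, Tex19.1 and Rpl10l had windows with no E-box, and a missing match says only that these letters are not in these 300 bases. Sycp3 and Hormad1, which held a pair of E-boxes each, are shown with the E-boxes in capitals. Sycp3 lies on the plus strand at chr10:88459337-88459586 and Hormad1 on the plus strand at chr3:95559427-95559676.
Sycp3: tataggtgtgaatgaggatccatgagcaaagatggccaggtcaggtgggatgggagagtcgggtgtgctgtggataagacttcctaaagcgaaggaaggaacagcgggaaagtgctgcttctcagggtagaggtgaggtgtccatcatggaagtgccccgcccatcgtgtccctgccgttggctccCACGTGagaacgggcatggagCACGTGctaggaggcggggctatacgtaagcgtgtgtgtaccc
Hormad1: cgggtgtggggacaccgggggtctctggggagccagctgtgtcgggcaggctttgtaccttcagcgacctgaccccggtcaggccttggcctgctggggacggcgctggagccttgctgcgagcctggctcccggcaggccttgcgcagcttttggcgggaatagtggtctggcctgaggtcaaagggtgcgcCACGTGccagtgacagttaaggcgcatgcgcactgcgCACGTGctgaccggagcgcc

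Telomere genes were higher or not called, with 13 higher and 0 lower of 20, all tested, and a median of 1.01. These 13 became 4 without MEF replicate 1 and 5 without MEF replicate 2. The telomerase catalytic subunit Tert was low in both cell types, at 1.90 and 2.23 FPKM in mESC and 1.20 and 1.20 in MEF (0.47, SE 0.17, limma adjusted p = 0.056). Partners that assemble the enzyme differed more. The pseudouridine synthase Dkc1 was at 79.5 and 81.1 FPKM in mESC and 21.1 and 23.8 in MEF (1.80, SE 0.20, limma adjusted p = 0.0013), the assembly factor Naf1 at 57.2 and 44.4 against 9.92 and 10.95 (2.17, SE 0.22), and the Cajal body chaperone Wrap53 at 18.4 and 24.4 against 6.99 and 7.06 (1.47, SE 0.22). Of the shelterin proteins that cap the telomere, Terf1 was at 42.3 and 39.6 FPKM against 7.18 and 9.34 and Pot1a at 21.0 and 16.5 against 3.48 and 4.93 (1.93, SE 0.25). Acd overlapped, at 20.2 and 28.3 FPKM against 20.8 and 15.1 (limma adjusted p = 0.24). The box H/ACA proteins Nhp2, at 66.2 and 228 FPKM in mESC, and Gar1, at 20.5 and 58.1, differed by over 2-fold between the mESC libraries and did not pass. The calls of Wrap53, Nop10 and Rtel1 ended when either MEF library was left out, and that of Pot1a without MEF replicate 1.

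Cell cycle genes had 25 higher and 6 lower of 57 tested (58 listed), with a median of 0.57; without MEF replicate 1 it was 4 higher and without MEF replicate 2 it was 6. The G1 cyclins differed in level between stem cells and fibroblasts. Ccne1, the cyclin E of the G1 to S transition, was at 125 and 140 FPKM in mESC and 35.8 and 36.9 in MEF (1.84, SE 0.21, limma adjusted p = 0.0014). The mitogen-dependent D cyclins were lower: Ccnd2 at 1.10 and 2.01 FPKM against 108 and 112 (-5.46, SE 0.25), and Ccnd1 at 21.4 and 23.9 against 84.96 and 80.2 (-1.82, SE 0.20). Ccnd3 was at 97.4 and 168 FPKM in mESC and 95.6 and 69.8 in MEF and did not pass (0.64, SE 0.34, limma adjusted p = 0.16). The D cyclin kinase Cdk4 overlapped, at 232 and 372 FPKM against 339 and 292. Of 11 inhibitors and pocket proteins 3 were lower and 2 higher, the latter Cdkn1b (0.87, SE 0.19) and Trp53 (1.29, SE 0.25). The 3 lower were kinase inhibitors. Cdkn1a, which encodes p21, was at 29.2 and 37.3 FPKM against 122 and 111 (-1.79, SE 0.23), Cdkn2b at 0.519 and 2.01 against 35.0 and 26.1 (-3.87, SE 0.37), and Cdkn2c at 0.290 and 0.727 against 16.9 and 12.1 (-3.36, SE 0.26). Cdkn2a overlapped, at 14.3 and 23.6 FPKM against 18.1 and 10.16 (limma adjusted p = 0.38). The growth-promoting transcription factor Mycn was at 40.1 and 43.1 FPKM in mESC and 0.643 and 0.384 in MEF (4.82, SE 0.20), and Myc at 16.7 and 16.03 against 37.2 and 33.1 (-1.06, SE 0.20). Of 16 mitotic kinases and checkpoint genes 11 were higher and 0 lower, among them the licensing factor Cdt1 at 88.0 and 133 FPKM against 28.5 and 23.6 (2.02, SE 0.28). Aurkb did not pass, at 30.9 and 48.1 FPKM against 29.6 and 23.5 (limma adjusted p = 0.17). The calls of Myc and Cdt1 ended when either MEF library was left out, and that of Cdkn1a without MEF replicate 1.

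In apoptosis 10 genes were higher and 9 lower of 27 tested (28 listed), with a median of 0.01; without either MEF replicate 1 or MEF replicate 2 it was 2 and 3. The sign of the median rested on single libraries: it was -0.23 without mESC replicate 1, 0.22 without mESC replicate 2, -0.12 without MEF replicate 1 and 0.15 without MEF replicate 2. Over all tested genes 30.6% were higher and 26.1% lower, so nothing particular to apoptosis is read from the counts of this list. The initiator caspase Casp8 was at 0.967 and 0.786 FPKM in mESC and 10.6 and 13.3 in MEF (-2.78, SE 0.20, limma adjusted p = 0.00033). The death effector Bok was at 5.72 and 10.7 FPKM against 44.7 and 29.6 (-2.08, SE 0.36), Bcl2 at 0.212 and 0.103 against 1.39 and 1.52 (-1.09, SE 0.15), and Bcl2l2 at 2.01 and 3.65 against 12.1 and 9.91 (-1.68, SE 0.28). The pore-forming proteins Bax and Bak1 were abundant in both and did not pass, with Bax at 176 and 274 FPKM against 165 and 129 and Bak1 at 24.6 and 44.5 against 59.8 and 45.7. The calls of Bok, Bcl2l2 and Casp6 ended when either MEF library was left out.

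Among innate immune and inflammatory genes most of the calls were lower in mESC. In the interferon and antigen presentation list 18 of 39 tested genes (50 listed) were lower and 2 higher, with a median of -0.67; without MEF replicate 1 it was 9 lower and without MEF replicate 2 it was 11, and without mESC replicate 1 it was 6 higher. The 2 higher were Tlr2 (0.63, SE 0.19) and Ifitm1, at 64.8 and 58.3 FPKM in mESC against 5.87 and 7.05 in MEF (3.07, SE 0.21, limma adjusted p = 0.00026). The light chain of MHC class I, B2m, was at 18.5 and 27.4 FPKM in mESC and 366 and 458 in MEF (-4.12, SE 0.28, limma adjusted p = 0.00026). The heavy chain H2-K1 was low in both, at 8.99 and 12.9 FPKM against 16.9 and 15.8, and did not pass (-0.56, SE 0.24, limma adjusted p = 0.1); MHC genes are similar to one another, so single values are uncertain. Tmem173, which encodes the DNA sensing adaptor STING, was at 0.280 and 0.581 FPKM against 17.8 and 18.0 (-3.73, SE 0.20), and the interferon receptor chain Ifnar2 at 6.77 and 6.47 against 26.3 and 26.2 (-1.84, SE 0.19). The RNA sensor Ddx58 did not pass, at 6.79 and 7.92 FPKM against 4.45 and 5.74 (limma adjusted p = 0.12). Chemokines and cytokines had 15 lower and 0 higher of 19 tested (20 listed), with a median of -3.40. Those near 0 in mESC could pass the level filter only through MEF, which set their direction. With no filter 16 of the 20 were lower and 0 higher, with a median of -2.90. The monocyte attractants Ccl2, at 107 and 101 FPKM in MEF, and Ccl7, at 124 and 137, were listed at 0 in both mESC libraries. Cxcl12, the ligand that homes progenitors, was at 0.349 and 0.872 FPKM in mESC and 98.4 and 105 in MEF (-6.01, SE 0.24), Csf1, the macrophage growth factor, at 0.0662 and 0.238 against 133 and 121 (-6.80, SE 0.20), and Il1rl1, the receptor of interleukin 33, at 0.0643 and 0.0194 against 90.5 and 122. Mif was abundant and overlapping, at 680 and 1569 FPKM in mESC and 1055 and 930 in MEF (limma adjusted p = 0.91). Saa3 differed between the MEF libraries, at 5.55 and 0.896 FPKM, and did not pass. The call of Nfkb2 ended when either MEF library, or mESC replicate 1, was left out.

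Lysosome and secretory genes were lower in part. In the lysosome and autophagy list, 46 genes and all tested, 20 were lower and 7 higher, with a median of -0.63; without MEF replicate 1 it was 6 and 3, and without MEF replicate 2 it was 7 and 3. The median was -0.35 without mESC replicate 1 and -1.0 without mESC replicate 2. The membrane protein gene Lamp2 was at 24.6 and 14.0 FPKM in mESC and 155 and 207 in MEF (-3.20, SE 0.33, limma adjusted p = 0.001) and the protease Ctsb at 20.8 and 29.1 against 116 and 117 (-2.20, SE 0.24). Lamp1, its companion in the membrane, did not pass, at 390 and 342 FPKM against 406 and 449 (-0.22, SE 0.24, limma adjusted p = 0.45). Against the direction of the list, the glycosidase Manba was at 46.5 and 56.2 FPKM in mESC and 4.33 and 5.36 in MEF (3.16, SE 0.22), and the ATG8 family gene Gabarapl2 at 426 and 376 against 45.6 and 47.9 (3.07, SE 0.22). The lysosomal regulator Tfeb was higher as well, at 10.8 and 16.8 FPKM against 4.05 and 2.85 (1.72, SE 0.28). In the secretory pathway 15 of 26 genes were lower and 0 higher, with a median of -0.91, but 1 was called when either MEF replicate 1 or MEF replicate 2 was left out. The coat subunit Copz2 was at 0.686 and 2.39 FPKM in mESC and 72.4 and 73.3 in MEF (-4.95, SE 0.36), and Creb3l1, a transcription factor that drives collagen secretion, at 3.01 and 7.93 against 51.8 and 52.7 (-3.16, SE 0.40). The disulfide isomerase P4hb was at 158 and 249.3 FPKM against 552 and 541 (-1.46, SE 0.30), and the translocon subunit Sec61b overlapped, at 141 and 239 against 200 and 184 (limma adjusted p = 0.88). The calls of Tfeb, Creb3l1, P4hb, Kdelr1, Sec23a and Sec24d ended when either MEF library was left out, and that of Sec23a also without mESC replicate 2.

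Metabolic genes are given by pathway, and over all tested genes 30.6% were higher and 26.1% lower. In the one-carbon, threonine and serine list 10 of 24 tested genes (26 listed) were higher and 4 lower, with a median of 0.61; without MEF replicate 1 it was 6 and 2, and without MEF replicate 2 it was 6 and 3. Tdh, the threonine dehydrogenase that mouse stem cells depend on, was at 106 and 138 FPKM in mESC, whereas both MEF libraries had it at 0. The glycine cleavage genes Gldc, at 22.9 and 42.2 FPKM against 0.171 and 0.304 (4.70, SE 0.32, limma adjusted p = 0.00026), and Amt, at 14.5 and 34.9 against 0.831 and 0.402 (3.88, SE 0.43), were higher, as was the cytosolic folate enzyme Mthfd1, at 80.4 and 104 against 13.5 and 12.2 (2.74, SE 0.23). The serine synthesis enzyme Phgdh was lower, at 35.3 and 57.5 FPKM against 264 and 232 (-2.43, SE 0.30), along with the mitochondrial Aldh1l2, at 0.515 and 0.376 against 17.9 and 19.6 (-3.77, SE 0.19), and the other lower genes were Psat1 (-1.33, SE 0.23) and Mthfd2l (-2.20, SE 0.24). The mitochondrial folate enzymes Mthfd2, at 68.1 and 46.5 FPKM against 62.7 and 73.7, and Shmt2, at 62.8 and 105 against 111 and 84.7, overlapped. Nucleotide synthesis had 13 higher and 1 lower of 27 genes, with a median of 0.67; without MEF replicate 1 it was 4 higher and without MEF replicate 2 it was 3. The uridine phosphorylase Upp1 stood far above the rest, at 314 and 431 FPKM in mESC and 0.446 and 0.524 in MEF (7.96, SE 0.24). Ppat, the first enzyme of purine synthesis, was at 63.3 and 51.8 FPKM against 10.3 and 11.2 (2.31, SE 0.21), and Dhodh, the mitochondrial pyrimidine enzyme, at 28.4 and 28.5 against 7.47 and 6.34 (1.90, SE 0.20). The lower gene was Ctps2 (-0.70, SE 0.20), and the ribonucleotide reductase subunit Rrm2 did not pass, at 125 and 147 FPKM against 115 and 125. The calls of Cad and Prps2 ended when either MEF library was left out, and that of Phgdh without MEF replicate 1.

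Glycolysis could be read only with the replicates in view. Over all tested genes 30.6% were higher and 26.1% lower. In the list of glycolysis and mitochondria 16 of 49 tested genes (51 listed) were higher and 1 lower, with a median of 0.31. Without mESC replicate 1 it was 22 higher and 1 lower (median 0.70), and without mESC replicate 2 it was 15 higher and 10 lower (median -0.05). The number higher was 5 without MEF replicate 1 and 6 without MEF replicate 2. The glucose transporter Slc2a3 was at 339 and 725 FPKM in mESC and 3.23 and 3.23 in MEF (6.88, SE 0.39, limma adjusted p = 0.00016), and its relative Slc2a1 at 192 and 428 against 64.9 and 54.4 (2.25, SE 0.41). Hexokinase 2, Hk2, was at 57.3 and 107 FPKM against 13.6 and 13.1 (2.47, SE 0.33), and Pdk1, which holds pyruvate out of mitochondria, at 63.5 and 53.9 against 4.01 and 4.46 (3.51, SE 0.21). The enzymes of the last steps, Pkm and Ldha, overlapped between the groups: Pkm was at 583 and 1209 FPKM in mESC and 828 and 727 in MEF (0.11, SE 0.40, limma adjusted p = 0.82), and Ldha at 290 and 833 against 881 and 805 (-0.78, SE 0.52, limma adjusted p = 0.25). Ldhb was higher, at 144.6 and 198 FPKM against 28.7 and 23.3 (2.66, SE 0.26). The orphan receptor Esrrb, which acts on mitochondrial genes, was at 94.1 and 118 FPKM against 0.0364 and 0.0226 (6.69, SE 0.21). The calls of Hk2, Slc2a1 and Cox7a1 ended when either MEF library was left out.

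Few genes of sterol synthesis were called, with 0 higher and 2 lower of 17, among them the demethylase Cyp51 (-1.07, SE 0.21). Over the whole lipid list 7 of 39 tested genes (41 listed) were higher and 10 lower, against 1 and 3 when either MEF replicate 1 or MEF replicate 2 was left out. Fatty acid binding proteins went both ways: Fabp3 was at 128 and 538 FPKM in mESC and 31.8 and 24.8 in MEF (3.18, SE 0.67, limma adjusted p = 0.011), and Fabp5 at 8.65 and 23.1 against 130 and 130 (-3.10, SE 0.45). Apoe varied within both groups, at 85.8 and 379 FPKM against 37.4 and 18.3 (2.74, SE 0.74). In the antioxidant list 10 of 36 tested genes (37 listed) were higher and 11 lower, with a median of -0.08; the 10 became 1 when either MEF replicate 1 or MEF replicate 2 was left out. That median was 0.18 without mESC replicate 1 and -0.37 without mESC replicate 2, so 1 library turned its sign. Over all tested genes 30.6% were higher and 26.1% lower, so nothing particular to the antioxidant list is read from its counts. The glutathione transferase Gsta4 was at 186 and 261 FPKM in mESC and 29.6 and 33.5 in MEF (2.77, SE 0.26), and the NRF2 target Nqo1 at 25.6 and 21.1 against 10.3 and 9.90 (1.13, SE 0.21). Other members of the same enzyme families were lower: Gsto1 was at 15.3 and 17.3 FPKM against 242 and 233 (-3.79, SE 0.21), Mgst1 at 1.24 and 0.779 against 32.1 and 39.9 (-4.20, SE 0.23), and the endoplasmic reticulum peroxidase Gpx8 at 1.49 and 2.84 against 112 and 117 (-5.23, SE 0.27). Metallothionein Mt1 overlapped between the groups, at 366 and 340 FPKM against 340 and 406. The calls of Cpt1a, Fabp3, Fabp5, Apoe and Nqo1 ended when either MEF library was left out, and that of Apoe also without mESC replicate 2.

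Regulators of RNA had 12 higher and 4 lower of 24, all tested, with a median of 0.77; without either MEF replicate 1 or MEF replicate 2 it was 6 higher, and without MEF replicate 2 it was 2 lower. The LINE-derived L1td1, at 234 and 225 FPKM in mESC, and the let-7 inhibitor Lin28a, at 73.1 and 90.6, were listed at 0 in both MEF libraries. Trim71, itself a let-7 target, was at 19.8 and 34.8 FPKM in mESC and 0.365 and 0.247 in MEF (4.39, SE 0.30, limma adjusted p = 0.00027). Another let-7 target, Hmga2, went the other way, at 15.6 and 10.4 FPKM against 165 and 191 (-3.70, SE 0.27), and its relative Hmga1 varied within both groups, at 40.7 and 146 against 142 and 67.7 (limma adjusted p = 0.69). All 3 muscleblind genes, which promote splicing patterns of differentiated cells, were lower: Mbnl1 at 2.80 and 1.89 FPKM against 39.2 and 53.4 (-3.82, SE 0.26), Mbnl2 at 15.1 and 7.95 against 58.0 and 74.5 (-2.48, SE 0.34), and Mbnl3 at 0.690 and 0.491 against 1.60 and 2.09 (-0.83, SE 0.18). The call of Mbnl2 ended when either MEF library was left out, and those of Igf2bp1 and Mbnl3 without MEF replicate 2.

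Close relatives were also set side by side. Among 30 paralog families of 2 to 6 members, 11 had members called in both directions, where 30.6% of all tested genes were higher and 26.1% lower, so nothing particular to the families is read from that count. In 18 families the member with the highest mean FPKM differed between the cell types. They include LIN28 proteins, whose leading member in MEF, Lin28b, stood at only 0.0667 and 0.0519 FPKM there. The leading cadherin was Cdh1 in mESC and Cdh11 in MEF, and the leading lamin Lmnb1 in mESC and Lmna in MEF. The leading D cyclin changed from Ccnd3 in mESC to Ccnd2 in MEF, and the leading TET enzyme from Tet1 to Tet3. Mycn led in mESC and Myc in MEF, Cbx7 in mESC and Cbx6 in MEF, Slc2a3 in mESC and Slc2a1 in MEF. In the beta thymosins, which bind free actin, Tmsb10 led in mESC, at 492 and 2380 FPKM against 1895 and 1309 in MEF, and was not called (limma adjusted p = 0.57). Tmsb4x led in MEF, at 740 and 660 FPKM in mESC and 2687 and 3183 in MEF (-2.06, SE 0.26, limma adjusted p = 0.002). Among S100 proteins 5 of 6 were lower; S100a11 was at 49.1 and 124 FPKM in mESC and 1751 and 1945 in MEF (-4.55, SE 0.46), and S100a10 at 56.0 and 197 against 416 and 385 (-1.92, SE 0.59). In 12 families 1 member led in both, among them the actins, led by Actg1, and the SWI/SNF ATPases, led by Smarca4. A leading member is a rank of 2 means, and in the D cyclins, HMGA proteins and TEAD factors, among others, the mESC leader was not itself called. The calls of Tmsb4x and S100a10 ended when either MEF library was left out.

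**Figure D3:**
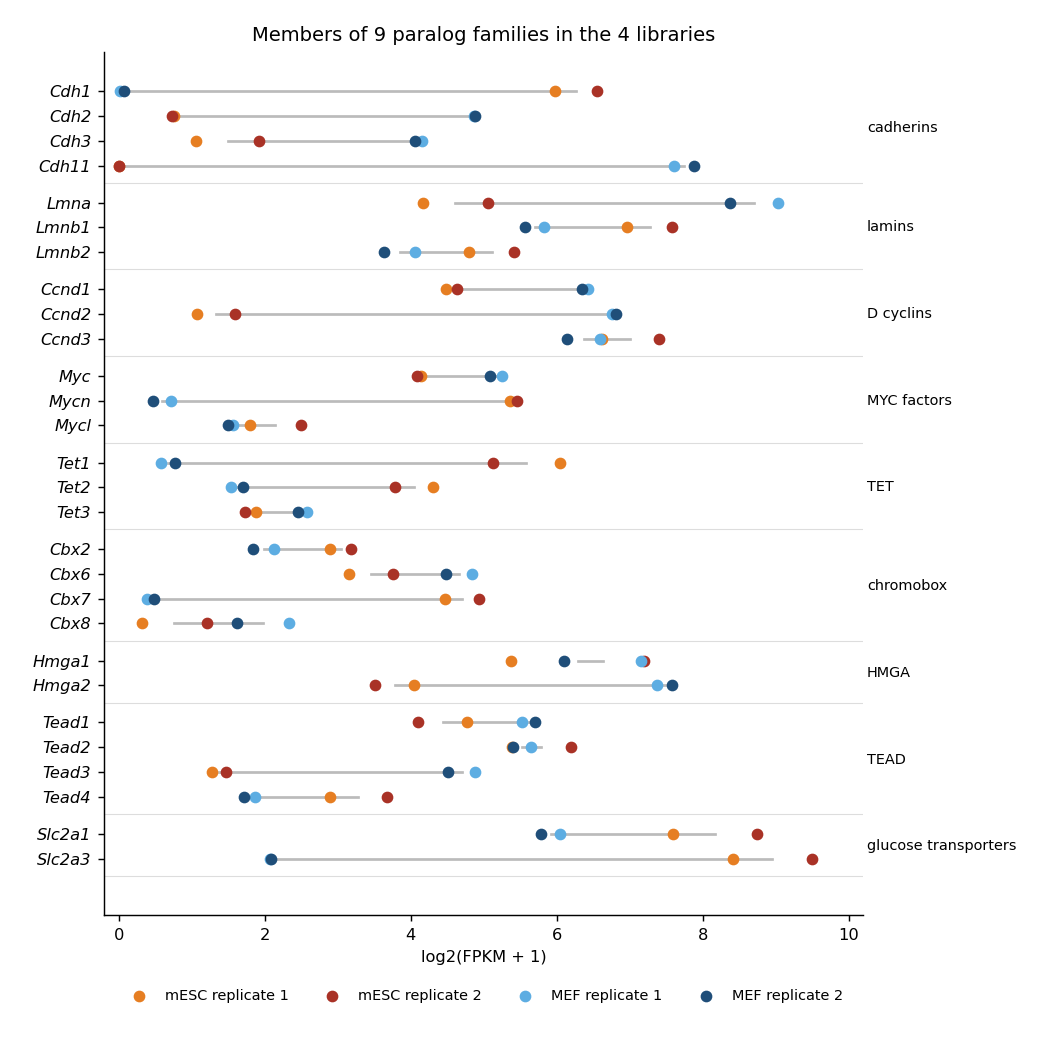
Levels of the members of 9 paralog families in the 4 libraries on the log2(FPKM + 1) scale; points are libraries and grey lines join the group means. Within each of the cadherins, lamins, MYC factors, TET enzymes and chromobox proteins, at least 1 member is called higher and 1 lower in mESC, as with Cdh1 (6.22) and Cdh11 (-7.74).

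Outside the lists, the genes with the largest differences higher in mESC were led by Dppa5a, the KH-domain protein gene that the study knocks down elsewhere, at 1485 and 1818 FPKM in mESC and 0 and 0.0871 in MEF (10.62, SE 0.22, limma adjusted p = 5.2e-05). The F-box gene Fbxo15 was at 172 and 138 FPKM in mESC, with 0 in both MEF libraries, and the helix-loop-helix factor Tcf15 at 142 and 197 against 0.225 and 0 (7.25, SE 0.25). The water and glycerol channel Aqp3 was at 102 and 173 FPKM against 0.0388 and 0 (7.04, SE 0.30). The hormone precursor gene Trh was at 86.3 and 153 FPKM in mESC and the Ras relative Eras at 73.8 and 87.5, both listed at 0 in MEF. The orphan receptor Nr0b1 was at 62.2 and 61.9 FPKM against 0 and 0.0590. Rex2, Zfp600 and Trap1a, which belong to families of similar copies, were also in this set, and their values are uncertain. Among the genes lower, the fibulin Fbln2 was at 0.150 and 0.603 against 601 and 496 (-8.66, SE 0.26), and tenascin, Tnc, at 0 and 0.0112 against 364 and 319 (-8.41, SE 0.20). Collagen VI, Col6a1, was at 0.0182 and 0.0551 FPKM against 354 and 324. The calcification inhibitor Mgp was at 0 and 0.248 FPKM against 305 and 289, and the annexin Anxa1 at 3.29 and 3.31 against 622 and 845 (-7.40, SE 0.24). In the promoter windows the median number of CpG pairs per 300 bases, taking the window with the most for each gene, was 12.5 over 98 genes at least 16-fold higher and 16 over 198 genes at least 16-fold lower, below the 22 over tested genes and above the 8 over all genes in the table.

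The 2 mESC libraries differed from each other more than the 2 MEF libraries did. Across the tested genes, which are not independent replicates, log2 values correlated at 0.962 between the mESC libraries and 0.987 between the MEF libraries (Pearson). The replicates were more than 2-fold apart for 967 genes (7.51%) in mESC and 66 (0.51%) in MEF. Both pairs differed beyond what sampling alone would give, at 141 and 34.1 chi-square units per degree of freedom in mESC and MEF. Genes induced by low oxygen stood out in mESC replicate 2, a list chosen after its values were seen: of 27 tested (28 listed), 25 were higher in replicate 2 than in replicate 1 and 21 by over 2-fold, with a median gap of 1.58 on the log2 scale, against 0.09 over all genes. Among those with the widest gaps, the ankyrin repeat gene Ankrd37 was at 0.769 and 25.6 FPKM in the 2 mESC libraries, the mitochondrial protein gene Ndufa4l2 at 1.65 and 36.5, the vasodilator peptide gene Adm at 1.08 and 21.6, and the lactate exporter Slc16a3 at 7.71 and 69.3. In MEF these 4 genes were at 3.20 and 1.61, 7.06 and 3.46, 23.8 and 21.5, and 71.3 and 49.8 FPKM. The groups overlapped for all 4, and none was called. Pdk1 and Kdm3a were the 2 exceptions in the list, lower in replicate 2. Outside it Cox7a1, a muscle and heart isoform of a respiratory subunit, was at 6.38 and 48.0 FPKM. Epithelial junction genes were also higher in replicate 2, with a median gap of 0.73. Genes of the shortest genomic span (the lowest 10%) had a median gap of 0.43 in mESC and -0.21 in MEF, and the longest 10% had -0.04 and 0.04, and the part of span in the hypoxia gap was not tested.

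**Figure D4:**
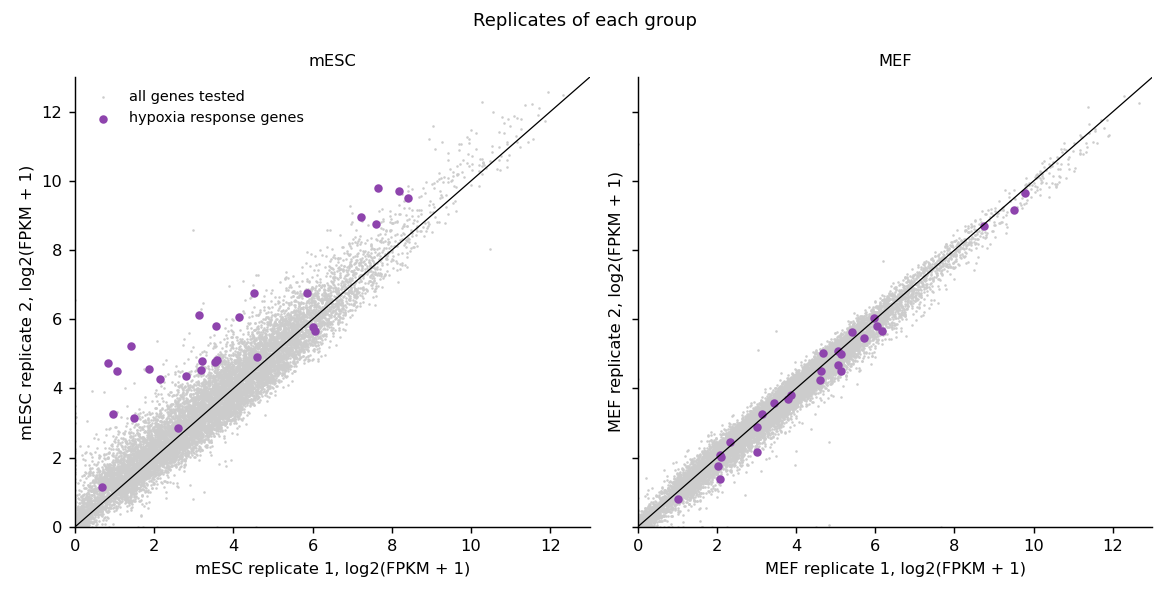
Replicate 2 against replicate 1 of mESC (left) and MEF (right), on the log2(FPKM + 1) scale; grey points are all tested genes, purple points the hypoxia response genes and the line is equality. In mESC 25 of the 27 purple points lie above the line, among them Slc16a3 at 7.71 and 69.3 FPKM.

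Differences were also summarised by chromosome. The median log2 fold change lay between -0.10 and 0.23 on every autosome and the X chromosome except 8 and 6. On chromosome 8 it was 0.60, with 310 of 691 genes higher (44.9%) and 116 lower, and on chromosome 6 it was 0.45, with 260 of 619 higher (42%) and 151 lower. The shift on chromosome 8 was present in both mESC libraries, at 0.52 in replicate 1 and 0.71 in replicate 2 against the MEF mean. The other control stem cells of the series (KD_control, the wild type, untreated libraries of the knockdown experiment) had 0.23 and 0.23 there, close to their 0.21 over all genes. On chromosome 6 the mESC libraries had 0.42 and 0.48 and the KD_control libraries 0.39 and 0.38. In KD_control chromosome 6 did not stand apart, with 0.49 and 0.48 on chromosome 17 and 0.43 and 0.42 on chromosome 11. The Dppa5a knockdown libraries had 0.19 and 0.24 on chromosome 6, against 0.12 and 0.19 over all genes. Among genes with at least 10 FPKM in each library the medians were 0.63 on chromosome 8 (274 genes) and 0.70 on chromosome 6 (210 genes), against 0.23 over all 4308 such genes. Copy number was not measured.

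**Figure D5:**
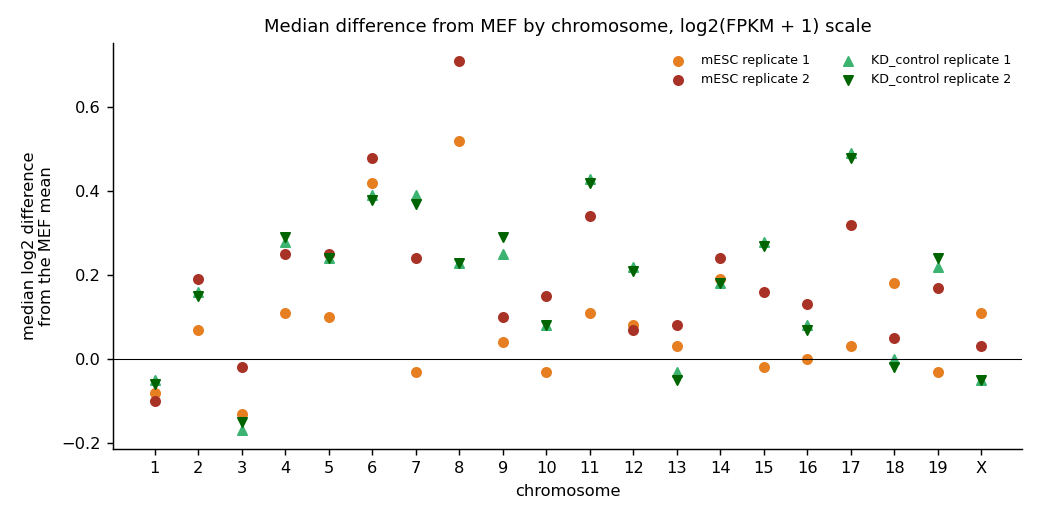
Median log2 difference of each stem cell library from the MEF mean, by chromosome, over the tested genes; circles are mESC libraries and triangles KD_control libraries. On chromosome 8 the mESC circles, at 0.52 and 0.71, lie above the KD_control triangles at 0.23. On chromosome 6 all 4 lie between 0.38 and 0.48, but the KD_control triangles lie higher on chromosome 17, at 0.49 and 0.48.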

How the data were processed

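RNA-seq of 2 mESC and 2 MEF libraries was analysed. Per the labels' protocols, RNA was isolated with Trizol, and an NEBNext Ultra kit was used for the libraries. No source used here states whether strand was kept. The deposited gene tables give FPKM, per the file headers. The tools named in the submitters' processing notes, with no role given, are TopHat2 2.0.8, HTSeq 0.6.1, Cuffdiff 2.1.1, Cufflinks 2.1.1 and CASAVA 2.19, and the build is mm10. The authors' steps before FPKM, such as multiple mapping, can move genes with near-identical copies.

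FPKM were summed over the loci of a symbol (280 of 24346 symbols had several). Genes whose mean reached 1 FPKM in mESC or in MEF were tested with limma 3.58.1 (limma-trend, R 4.3.3) on log2(FPKM + 1), with Benjamini-Hochberg adjustment and a threshold of 0.05. FPKM are not counts, so no count test was used, and limma used only the 4 libraries. Effective fragments were estimated from the FPKM confidence bounds, taken as 2 SD wide on each side. Tables were prepared with pandas 2.3.3 and numpy 2.4.6 in Python 3.11.15 and drawn with matplotlib 3.10.9. On simulated data of 12876 genes limma recovered 70% of genes changed 2-fold and 96% of those changed 4-fold, with 2.04% of calls false. These shares describe the simulated data. The false share among the calls in the 4 libraries, whose mESC pair was more spread than the MEF pair, was not measured.

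The members and lists were chosen with earlier results of these data known. Named genes were the preset key genes of each list, up to 4 others with the largest called change and a mean of at least 10 FPKM, up to 3 uncalled ones with the highest mean, every member of the paralog families, and, outside the lists, the 15 largest changes each way with at least 50 FPKM and no overlap. A part of these is named, and some members of the lists are not reported here. The alternatives were another pseudocount (0.1), no filter or a stricter one, other scalings, other sets of libraries, a replicate block, a 2-fold threshold, the locus with the highest mean, and leaving out each library. Promoter windows were read from RefSeq.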

Additional observations from a re-analysis of the deposited data

How the results depend on the processing

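No called gene of the 7306 was called in the opposite direction under any of the 15 alternatives, and of 281 named genes that were called, 193 stayed called under all of them. The direction of named genes that did not pass was not compared. With a 2-fold threshold (limma's treat) 1029 genes were higher and 1429 lower, and 138 and 250 of the listed genes. Leaving out 1 library at a time gave between 1072 and 3776 genes higher and between 1764 and 3443 lower, and between 120 and 319 listed genes higher and between 251 and 405 lower. The lowest counts came from the fits without a MEF library, where the spread is taken from the mESC pair, and 83 named calls ended without MEF replicate 1 and 76 without MEF replicate 2. With median-ratio scaling 48.5% of calls were higher, against 54.0%, and the median over all genes moved to 0.03. With a replicate block 3325 genes were higher and 3084 lower, and 6 named calls ended; the replicate numbers were not shown to pair the samples, whose same-numbered deviations correlated at -0.54. A crossed pairing, added after seeing the data, gave 4914 higher and 4037 lower. Of 108 named genes that were not called, 39 were called with the crossed pairing. When all 8 RNA-seq libraries of the series were fitted together, 28 were. A named gene that did not pass is therefore not shown to be equal. The calls that ended when either MEF library was left out were not confined to small differences. They included S100a6 (-6.01) and Cnn2 (-4.13) as well as Cnn3 (-0.82).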
